A study of Mus musculus with 12 samples.

Results

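Pou5f1, Sox2 and Sall4 are 3 of the 21631 protein-coding genes placed on the mouse genome, and they encode core transcription factors of pluripotent cells. Their loci were taken as the RefSeq spans in mm10 with 10 kb added on each side, together with the region 10 to 150 kb away from Sox2 that holds its distal enhancers. These 4 loci took in 25 of 47307 listed 10 kb bins at 24 h and 26 of 49460 at 0 h, and 16 of 21563 KLF4 peaks and 48 of 55466 H3K27ac peaks of induced pluripotent stem cells (iPSCs). The rule that picks these loci uses gene names and positions.

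Chromatin immunoprecipitation sequencing (ChIP-seq) mapped H3K27ac, the acetylation of histone H3 lysine 27 that marks active enhancers and promoters, and KLF4, a zinc-finger factor of the pluripotency network, in 12 samples of 7 groups. In V6.5 mouse embryonic stem cells (ESCs) H3K27ac was measured in 2 replicates after 24 h of doxycycline and in 2 replicates at 0 h. In iPSCs KLF4 was measured in 2 replicates and H3K27ac in 2, and the inputs were 2 ESC libraries, 1 for iPSC KLF4 and 1 for iPSC H3K27ac. The question the design poses is how loss of KLF factors changes enhancers and their contacts in pluripotent cells.

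Both ESC groups carried the lentiviral c3GIC9 vector, in which doxycycline turns on Cas9 with GFP and which also holds puromycin resistance and the rtTA activator. By the labels its guides target KLF4 by itself or else the trio of KLF2, KLF4 and KLF5. Since TKO and KLF4 KO both stand in the 24 h titles, the labels do not settle which genes were cut there. The 0 h cells held the same vector without induction, the lines were clonal populations picked by hand, and all samples are labelled as grown in 2i, a pair of inhibitors that holds mouse cells in the naive state. The growth protocol names irradiated feeder cells and the cytokine LIF.

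OCT4, the product of Pou5f1, is a POU-domain protein that binds DNA side by side with SOX2, an HMG-box protein, at composite sites in many enhancers of pluripotent cells, including enhancers of their own genes. SALL4 is a zinc-finger protein that works in the same network, activates Pou5f1 and binds the NuRD corepressor. In mouse ESCs Pou5f1 is driven by a proximal and a distal enhancer close upstream of the gene. Sox2 depends mainly on a distal cluster known as the Sox2 control region, far downstream.

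The deposited ESC lists give 2 numbers per bin that were used. The first is the H3K27ac value, in a unit that is not named, and a bin without one is called unvalued here. The second is a whole number that was read as the number of links (contacts with other bins) of the bin, because its sums were even on all 20 chromosomes at both times and in all 563 stretches of listed bins at 24 h and 556 at 0 h that are parted by gaps of over 1 Mb, with 0 odd sums. Links counted once at each of their ends would give such sums, but the lists do not state what the number counts. All samples are ChIP-seq or input libraries and none is a contact assay, so where the links come from is unknown. Each group has 1 list, and how its replicates were combined is not given. No value below therefore has a replicate error, no difference was tested and sequencing depth is unknown. A value from bulk cells does not tell a lower level in every cell apart from fewer cells with the mark, and loss of the KLF proteins was not checked here. Over the whole series 25611 bins had a value at 24 h and 26812 at 0 h, with medians of 4.05 at 24 h and 4.65 at 0 h. Among the 22739 bins valued at both times the median log2 ratio of the 24 h to the 0 h value was -0.23, and relative values below are log2 ratios minus this median. Links summed to 168512 at 24 h and 186496 at 0 h, and 47.5% of the 2 sums lay at 24 h.

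The promoter sequences show where a KLF4 peak and H3K27ac met the letters that KLF factors read. They come from RefSeq GRCm38.p6, which has the same primary assembly as mm10, and each holds 300 bases of the plus strand, with 250 bases before the annotated start and 50 after it. Capitals mark KLF/SP letters (GGGTGTGG, GGGNGGGGC or GGGCGG, searched on both strands, with GGGCGG able to lie within GGGNGGGGC). The Pou5f1 start, chr17:35505782-35506081, is shown because a KLF4 peak covers 103 of its bases. The Sox2 start, chr3:34649745-34650044, is shown because no KLF4 peak lies there. The start of Cchcr1, chr17:35516799-35517098, is shown because the widest KLF4 peak of the Pou5f1 locus covers all 300 bases.
Pou5f1 promoter 1: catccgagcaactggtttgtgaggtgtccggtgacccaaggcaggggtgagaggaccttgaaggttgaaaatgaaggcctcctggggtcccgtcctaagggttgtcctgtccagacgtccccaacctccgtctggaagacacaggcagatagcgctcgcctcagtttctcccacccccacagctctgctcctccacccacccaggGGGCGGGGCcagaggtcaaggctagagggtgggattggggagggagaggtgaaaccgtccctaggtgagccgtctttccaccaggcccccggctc
Sox2 promoter 1: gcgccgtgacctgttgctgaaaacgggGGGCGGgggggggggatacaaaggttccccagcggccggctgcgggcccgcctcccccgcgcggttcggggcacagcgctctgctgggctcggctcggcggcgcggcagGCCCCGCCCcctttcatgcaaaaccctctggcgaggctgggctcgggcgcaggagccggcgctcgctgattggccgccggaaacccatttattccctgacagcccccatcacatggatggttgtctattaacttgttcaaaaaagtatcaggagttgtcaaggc
Cchcr1 promoter 1: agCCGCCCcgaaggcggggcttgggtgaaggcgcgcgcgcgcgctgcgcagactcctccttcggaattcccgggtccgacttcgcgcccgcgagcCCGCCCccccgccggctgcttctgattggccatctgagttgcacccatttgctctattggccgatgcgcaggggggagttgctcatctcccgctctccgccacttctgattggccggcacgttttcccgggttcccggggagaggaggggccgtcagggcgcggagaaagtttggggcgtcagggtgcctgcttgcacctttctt

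In the Pou5f1 promoter both GGGNGGGGC and GGGCGG began at base 206, at -45 from the start, in letters shared by the 2 motifs, and this match lay inside the KLF4 peak. In the Sox2 promoter, which was 66.3% G or C, GGGNGGGGC stood at bases 137 to 145 on the other strand and GGGCGG at bases 28 to 33 and, on the other strand, 140 to 145. Its H3K27ac peaks covered 289 of the 300 bases. The Cchcr1 promoter held GGGCGG on the other strand at bases 3 to 8 and 96 to 101. The octamer ATGCAAAT and the SOX letters CATTGTT and ATTGTC were in none of these 3 windows. RefSeq gives Pou5f1 a second start within the gene, chr17:35508557-35508856, with no KLF4 peak and 29 of 300 bases under H3K27ac, and that window held CATTGTT on the other strand at -159 and none of the KLF/SP letters. A match describes letters and not bound sites, and such letters are common: GGGCGG was in 35.7% of 32851 promoters, GGGNGGGGC in 17.0% and GGGTGTGG in 3.56%. Of the 5150 promoters with an iPSC KLF4 peak, 85.7% held 1 or more of the KLF/SP motifs, against 40.5% of all promoters. The octamer was in 1.74% of all promoters, CATTGTT in 3.78% and ATTGTC in 8.68%. RefSeq promoters were matched for 2 of the 3 genes, Pou5f1 and Sox2.

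Sox2 had the highest H3K27ac value of the 3 genes at both times. Its best bin stood at 11.6 at 24 h and 14.2 at 0 h, higher than in 99.4% of 11887 genes with a value at 24 h and 99.3% of 12259 at 0 h. Sall4 came next with 11.4 at 24 h and 12.3 at 0 h, and Pou5f1 was lowest with 6.45 at 24 h and 8.73 at 0 h. The order was the same at both times, but with 1 list a time it cannot be set against a spread. Against the median bin the 3 genes stood apart in direction: Pou5f1 had a relative value of -0.21, Sox2 -0.06 and Sall4 0.24. Over 11243 genes with a relative value the median was 0.02 and the SD 0.27, so each of the 3 lay within 1 SD of the middle of all genes. Genes 1.5-fold or more lower made up 2.13% of all genes and those 1.5-fold or more higher 2.12%, and 0 of the 3 genes passed this fold in either direction.

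**Figure D1:**
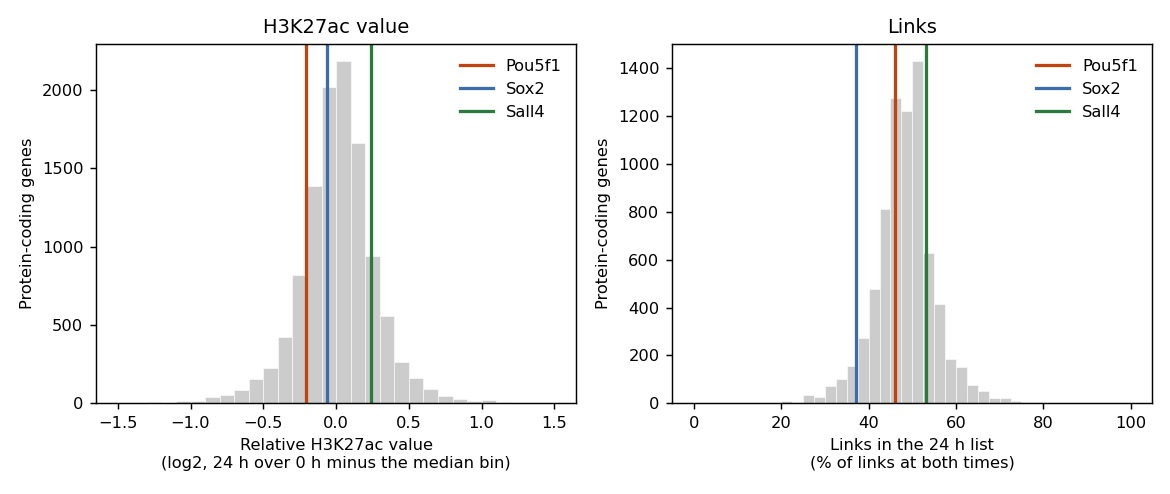
Histograms over protein-coding genes of the relative H3K27ac value (left, log2, 11243 genes) and of the share of links found at 24 h (right, percent, 7472 genes with 20 or more links at both times together). Coloured lines mark Pou5f1 at -0.21 and 46.2%, Sox2 at -0.06 and 37.1% and Sall4 at 0.24 and 53.0%: all 3 lie in the body of the left distribution, and Sox2 lies toward the low edge of the right one.

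Pou5f1 lies at chr17:35506032-35510777 and its locus covered 4 bins, all listed at both times. The 3 bins from 35490001 to 35520000 shared 1 value, 6.45 at 24 h and 8.73 at 0 h, and the last bin was unvalued at both times. The lists thus give 1 H3K27ac level over the gene, its upstream enhancers and the neighbouring genes Tcf19 and Cchcr1, and these could not be told apart. The relative value of -0.21, a ratio of 0.865 to the median bin, was higher than in 15.6% of genes. Of all genes, 46.7% were below 0 on this scale.

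Links per bin at Pou5f1, in order along the chromosome, were 7, 9, 8 and 6 at 24 h and 8, 11, 10 and 6 at 0 h. The bin that holds the start of the gene and its upstream enhancers had the most at both times. No bin had more links at 24 h, and 3 of the 4 had fewer, against 37.2% of the 41942 bins listed at both times. Of those 41942 bins 22.5% had more and 16870 were equal, and bins of a like link number were not compared. They summed to 30 at 24 h and 35 at 0 h, so 46.2% of the links lay at 24 h (95% exact binomial interval 33.7% to 59.0%, for counting error only). The interval includes the 47.5% of all bins.

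The iPSC lists put 4 KLF4 peaks at the Pou5f1 locus, more than 93.8% of genes had, while 53.2% of genes had 1 or more. Their centres lay at -3.07, -1.93, -0.057 and 11.0 kb from the start (negative is upstream), with widths of 138, 378, 103 and 654 bp. The first 2 fall within the noncoding gene Gm32362 upstream of Pou5f1, and the third ends just before the start, in the promoter sequence shown above. The fourth touches Tcf19 and Cchcr1 and was wider than 97.3% of KLF4 peaks. All 4 overlapped iPSC H3K27ac.

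H3K27ac in iPSCs formed 15 peaks at Pou5f1, where 97.5% of genes had fewer, and 60.4% had 1 or more. They covered 12092 bp, more than at 98.1% of genes. The 2 widest, of 3306 and 2621 bp, ran side by side over the upstream enhancers and the start and overlapped 3 of the KLF4 peaks. Pou5f1 was thus the member with the most KLF4 peaks and the most acetylated sequence near the gene in iPSCs, and the one with the lowest H3K27ac value in ESCs.

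**Figure D2:**
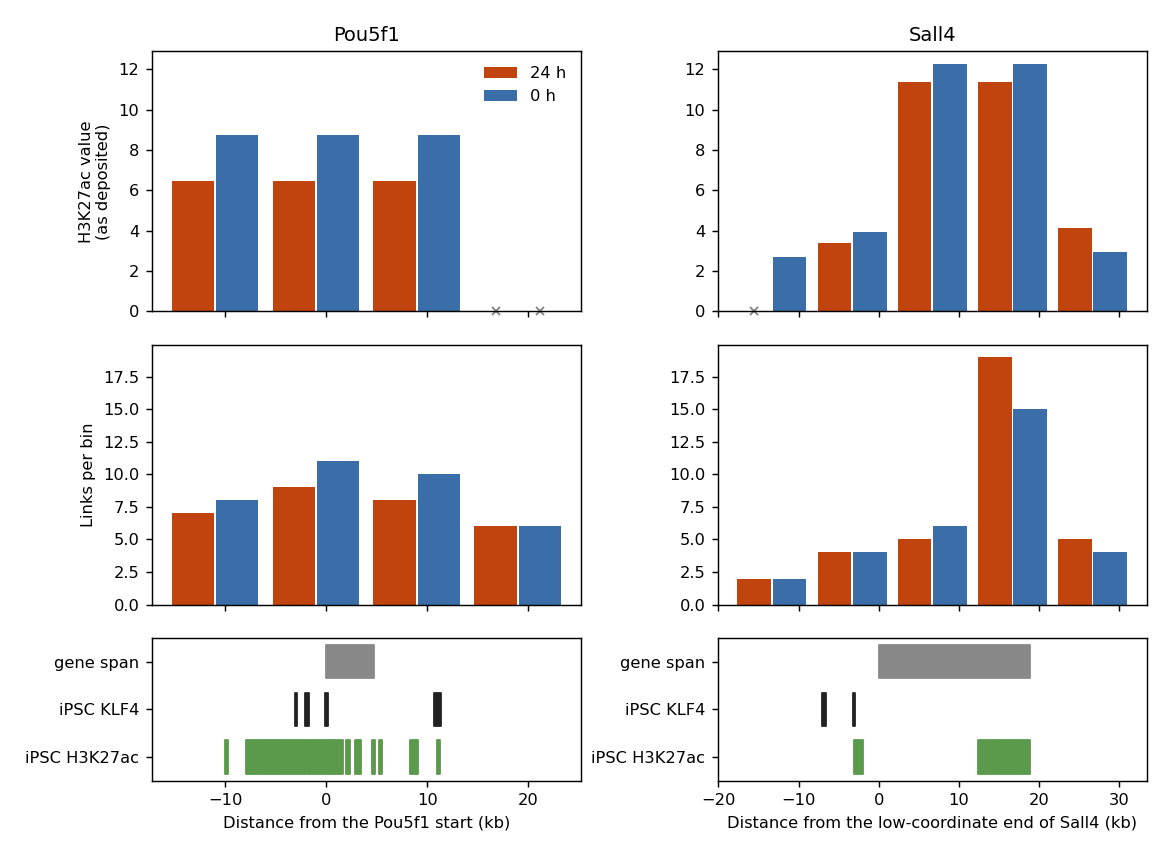
Pou5f1 (left) and Sall4 (right) by distance from the start of Pou5f1 or the low-coordinate end of Sall4 (kb). The top row gives the H3K27ac value per 10 kb bin as deposited, the middle row links per bin, with 24 h bars left of 0 h bars and crosses for bins without a value, and the bottom row the gene span and the iPSC KLF4 and H3K27ac peaks. The 3 valued Pou5f1 bins share 6.45 at 24 h and 8.73 at 0 h, and 1 Sall4 bin reaches 19 links at 24 h and 15 at 0 h.

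Sall4 lies at chr2:168748332-168767201 and its locus covered 5 bins. The bins from 168750001 to 168770000, which hold most of the gene, shared values of 11.4 at 24 h and 12.3 at 0 h. The bin before them had 3.38 at 24 h and 3.94 at 0 h, and the one after them 4.13 at 24 h and 2.94 at 0 h. The outermost bin, within the neighbouring gene Atp9a, a phospholipid flippase gene, was unvalued at 24 h and had 2.69 at 0 h. The signal was therefore high over the gene itself and low on both sides at both times.

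Sall4 was the only one of the 3 genes with a relative value above 0. It averaged 0.24 (SD 0.32 over the 4 bins valued at both times, which hold 3 separate values), higher than at 85.0% of genes. The SD over bins exceeded the mean. The bin from 168770001 was highest, at 0.72, and was the only bin of the 3 gene loci past 1.5-fold. Among all bins 4.94% were that much higher and 5.63% that much lower. Without that bin the mean was 0.08. The bins over the gene stood at 0.12, and the bin at its low end at 0.01. Values as deposited were lower at 24 h in every Sall4 bin valued at both times but the one from 168770001, and without centring the mean log2 ratio was 0.01.

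Links per bin at Sall4 were 2, 4, 5, 19 and 5 at 24 h and 2, 4, 6, 15 and 4 at 0 h. The bin from 168760001, which holds the high end of the gene, had more links than 99.6% of bins at 24 h and 98.1% at 0 h. The sums were 35 at 24 h and 31 at 0 h, so 53.0% lay at 24 h (40.3% to 65.4%), a higher share than at 81.0% of the 7472 genes with 20 or more links. It did not pass 1.5-fold higher relative to all bins, as 7.05% of genes did. The interval includes the share of all bins.

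KLF4 had 2 peaks at the Sall4 locus in iPSCs, both beyond the low end of the gene. One of 500 bp lay at -6.83 kb from that end, inside Atp9a and without H3K27ac. The other, of 197 bp, lay at -3.10 kb and overlapped H3K27ac. Of the 4 H3K27ac peaks at Sall4 the widest, of 4277 bp, reached the high end of the gene and was wider than 99.1% of H3K27ac peaks, and it held no KLF4 peak. The most linked bin at Sall4 and its widest acetylated stretch were thus in 1 bin, with 0 KLF4 peaks.

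Sox2 lies at chr3:34649995-34652461, inside the long noncoding gene Sox2ot, and its locus covered 4 bins. The bins from 34640001 to 34660000 shared 11.6 at 24 h and 14.2 at 0 h. The next bin had 5.01 at 24 h and 6.16 at 0 h. The bin from 34630001 was listed at 0 h only and had no value. The relative value was -0.06, with the bins at -0.06, -0.06 and -0.07, so all 3 stood close to the median bin, and 34.6% of genes were lower.

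Of the 3 genes Sox2 had the lowest share of its links at 24 h, with an interval that overlaps those of the other 2. Links per bin were 5, 10 and 8 at 24 h and 11, 14 and 10 at 0 h, with 4 more in the bin listed at 0 h only. All 3 bins listed at both times had fewer links at 24 h. The sums were 23 at 24 h and 39 at 0 h, so 37.1% lay at 24 h (25.2% to 50.3%), and 5.26% of 7472 genes had a lower share. Relative to all bins the ratio was 0.653, past 1.5-fold lower, as at 6.08% of genes. The interval includes the 47.5% of all bins, so counting error alone spans the difference. The call rests on the bin listed at 0 h only: over the bins listed at both times the sums were 23 at 24 h and 35 at 0 h and the ratio relative to all such bins was 0.717, short of 1.5-fold.

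In iPSCs Sox2 had 1 KLF4 peak within 10 kb, of 164 bp at -7.31 kb in Sox2ot, and it overlapped no H3K27ac. The 3 H3K27ac peaks covered 8843 bp. The widest, of 6221 bp over the gene, was wider than 99.7% of H3K27ac peaks. None of the 3 overlapped KLF4. At Pou5f1 the acetylated start held a KLF4 peak, and at Sox2 it did not. That Pou5f1 peak was narrow, wider than only 1.66% of KLF4 peaks.

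**Figure D3:**
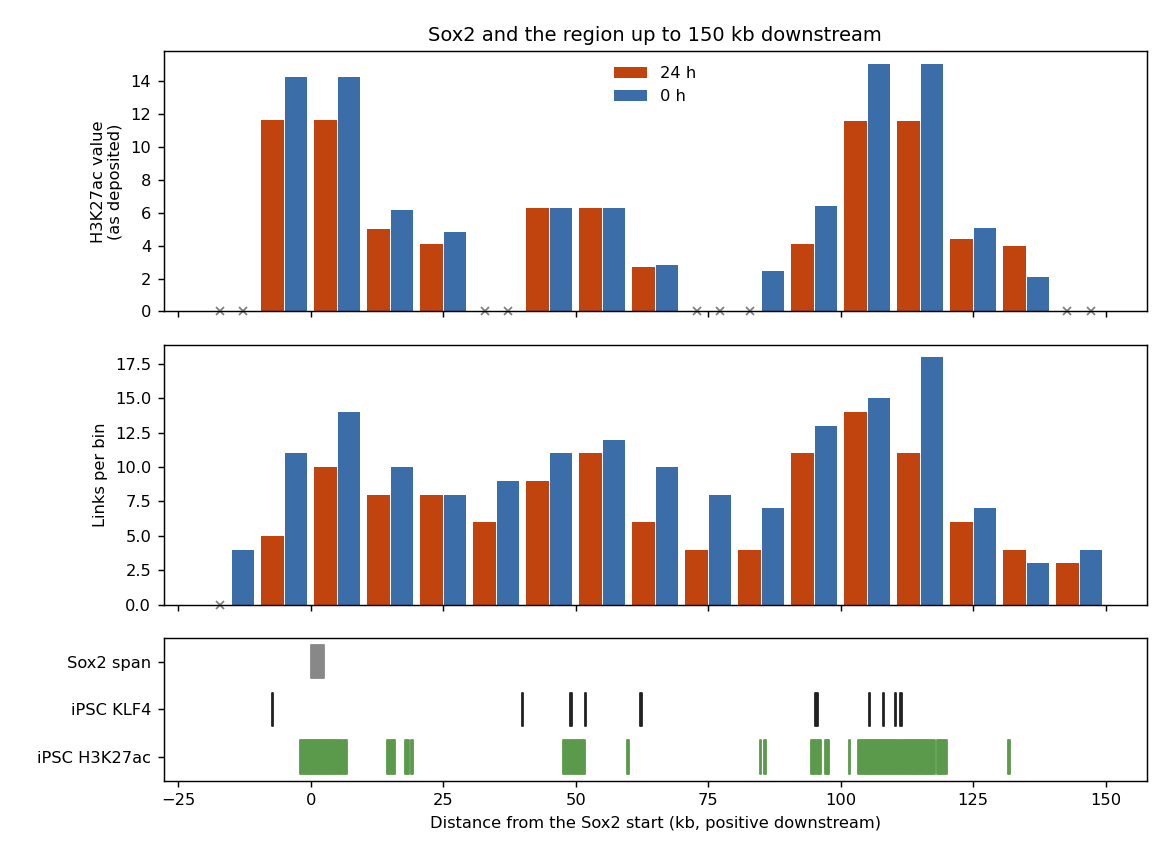
Sox2 and the region up to 150 kb downstream, by distance from the Sox2 start (kb). Rows give the H3K27ac value per 10 kb bin as deposited, links per bin, and the Sox2 span with the iPSC KLF4 and H3K27ac peaks, with 24 h bars left of 0 h bars and crosses for bins without a value or not listed. The values form 1 peak at the gene (11.6 at 24 h, 14.2 at 0 h) and another 100.0 to 120.0 kb downstream (11.5 at 24 h, 15.0 at 0 h), and 11 of the 13 distal bins have fewer links at 24 h.

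All 13 listed bins of the Sox2 distal region lay downstream of the gene. Their strongest point was the pair of bins from 34750001 to 34770000, which begins 100.0 kb from the start and sits where the Sox2 control region is known to be. This pair shared 11.5 at 24 h and 15.0 at 0 h, higher than 99.5% of the bins valued at 24 h and 99.6% of those valued at 0 h. Its level was thus close to that over the gene, 11.6 at 24 h and 14.2 at 0 h. Its relative value was -0.15, where the bins over the gene stood at -0.06.

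Closer to the gene the bins from 34690001 to 34710000 shared 6.29 at both times, a relative value of 0.23. The bin from 34740001, next to the control region, had 4.07 at 24 h and 6.41 at 0 h. Its relative value of -0.43 was the lowest of the region. The highest was 1.18, in the bin from 34780001, which had 4.00 at 24 h and 2.07 at 0 h and was the only distal bin past 1.5-fold. Its 0 h value was low, above that of 0.556% of valued bins. The other valued bins ranged less: the bin from 34670001 had 4.08 at 24 h and 4.84 at 0 h, the one from 34710001 2.70 at 24 h and 2.82 at 0 h, and the one from 34770001 4.40 at 24 h and 5.09 at 0 h. The bin from 34730001 was unvalued at 24 h and had 2.44 at 0 h, and 3 bins were unvalued at both times.

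Over the 9 distal bins valued at both times the mean relative value was 0.12 (SD 0.45 over bins), with 4 below 0 and 5 above, where 50% of all bins were below 0. The mean rests on the bin from 34780001: without it the mean was -0.02, and up to 100 kb from the gene it was 0.00. Among the distal regions of 16016 genes, taken the same way, 73.4% were lower than 0.12, 48.6% were below 0, and the SD was 0.24. Of these regions 1.58% were 1.5-fold or more lower and 1.45% were that much higher. The direction of the region's mean depended on the measure: taken from the highest value at each time it was -0.15, and without centring -0.11. The strongest bins of the region had relative values below 0, and 5 weaker ones had relative values above 0.

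Links per distal bin, outward from the gene, were 8, 6, 9, 11, 6, 4, 4, 11, 14, 11, 6, 4 and 3 at 24 h and 8, 9, 11, 12, 10, 8, 7, 13, 15, 18, 7, 3 and 4 at 0 h. They were highest at the control region at both times. Fewer links at 24 h were found in 11 of the 13 bins, 1 bin was equal and 1 had more. Of all bins listed at both times 37.2% had fewer and 22.5% had more, and the rest were equal. Bins of a like link number were not compared. The largest difference was 11 at 24 h against 18 at 0 h in the bin from 34760001. Neighbouring bins can share a link, so they are not independent. The sums were 97 at 24 h and 125 at 0 h, so 43.7% lay at 24 h (37.1% to 50.5%), and the distal regions of 19.0% of 13846 genes had a lower share. Relative to all bins the ratio was 0.859, short of 1.5-fold, which 6.22% of distal regions passed downward and 5.94% upward.

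Sox2 and its distal region sit in 1 stretch of listed bins, chr3:34630001-35030000, parted by 540 kb from the listed bins before it and by 290 kb from those after it. Its sum was looked at after the values above were known. Links in the stretch summed to 128 at 24 h and 174 at 0 h, so 42.4% lay at 24 h, and the interval of 36.7% to 48.2% includes the 47.5% of all bins. Both sums are even, as they would be if the links of this stretch had both ends within it.

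KLF4 bound 9 places in the distal region in iPSCs, and 6 of these overlapped H3K27ac. Nearest to the gene were peaks at 39.8, 49.1, 51.8 and 62.3 kb, of which the one at 49.1 kb overlapped H3K27ac. The peak at 95.4 kb was the widest, at 440 bp, and overlapped 2 H3K27ac peaks. The other 4, at 105.4, 108.0, 110.3 and 111.4 kb, lay in the pair of control region bins, within 1 run of acetylated sequence. That run held the widest of the 26 H3K27ac peaks of the distal region, of 6648 bp, wider than 99.8% of H3K27ac peaks, and this 1 peak overlapped all 4. The 26 peaks covered 26235 bp, more than in the distal regions of 93.3% of genes, and the 5 nearest the gene lie in the bin from 34660001 that was counted with Sox2 itself.

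In this region the ESC bins with an iPSC KLF4 peak had the higher median H3K27ac value at both times and a similar median relative value. Over valued bins the median value was 6.29 at 24 h and 6.35 at 0 h with KLF4, and 4.08 at 24 h and 3.64 at 0 h without it. The 2 medians without KLF4 are not over the same bins, as the bin from 34730001, at 2.44, had a value at 0 h only. Of the bins without KLF4 valued at both times, those from 34670001 and 34770001 were lower at 24 h and that from 34780001 was higher. Over 6 bins with KLF4 that were valued at both times the median relative value was 0.00, and over 3 without KLF4 it was 0.02. The bins with KLF4 include pairs that share 1 value. Single bins did not all follow the medians: the bin from 34710001, with KLF4, had 2.70 at 24 h, below each valued bin without KLF4. Links at 24 h were 43.6% of both times in the 7 bins with KLF4 (35.7% to 51.8%) and 43.9% in the 6 without (31.7% to 56.7%). KLF4 was not mapped in these ESCs, and iPSC and ESC lists were not scaled to each other.

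Genes that OCT4 and SOX2 are known to regulate in pluripotent cells mostly had relative values below 0. Of 17 such genes 16 had a relative value and 16 of these were below 0, where 46.7% of all genes were, but 1 passed 1.5-fold lower and the median was -0.18. That gene was Lefty2, an inhibitor of Nodal signalling, with a mean relative value of -0.91 over its 2 bins valued at both times. Its highest value was 2.38 among 2 valued bins at 24 h and 7.87 among 3 at 0 h. These 2 highest values were taken at each time separately and need not be from the same bin. Nr0b1, an orphan nuclear receptor gene, stood at -0.49, Dppa4, a chromatin-binding protein gene, at -0.43, and Fgf4, a growth factor gene with an OCT4-SOX2 enhancer, at -0.26. The Nr0b1 value came from only 1 bin valued at both times. Lefty1, the neighbour of Lefty2 and also a Nodal inhibitor, had no valued bin at either time. The list was drawn up with results of these data known, its members overlap with the next list, and its count has no test. Genes of a like H3K27ac level were not compared: the median highest value at 0 h was 9.61 in this list and 5.85 over all genes with a value.

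Among 28 pluripotency regulators besides the 3 genes 20 were below 0, where 46.7% of all genes were, and 8 above, with a median of -0.09. Some of the 28, such as Nanog and Zfp42, are OCT4-SOX2 target genes already counted above. Foxd3, a forkhead factor, was lowest at -0.82 over 3 bins valued at both times, with highest values of 5.53 at 24 h and 10.3 at 0 h. Zfp281, a zinc-finger factor, was highest at 0.66, a mean over only 2 bins valued at both times. Its highest value as deposited was lower at 24 h, 4.97 at 24 h and 5.32 at 0 h. These 2 were the members past 1.5-fold, 1 in each direction, as 2.13% of all genes were downward and 2.12% upward. Of the 3 labelled guide targets Klf5 stood at 0.43, Klf4 at -0.05 and Klf2 at -0.12. Pou5f1 and Sox2 thus lay on the side of most of these genes, and Sall4 did not. Genes of a like H3K27ac level were not compared here either.

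Of 34 other POU, SOX and SALL genes 15 had one, against 52% of all genes, with 7 below 0 and 8 above and a median of 0.06. Sox18, a factor of vessel development, was highest at 0.94 and Sox21 stood at 0.60, both past 1.5-fold, which 2.12% of all genes passed upward. Pou2f3, known as a tuft cell factor, was lowest at -0.53, and Sox1, a neural factor, stood at -0.44. Sox18 and Sox1 each rest on only 1 bin valued at both times, and the Sox18 value at 0 h was low, at 2.63. Of the 13 NuRD genes, whose complex SALL4 binds, 12 had a relative value, with 6 below 0 and 6 above, a median of 0.01 and 0 past 1.5-fold. They ran between -0.25 for Hdac1, a histone deacetylase gene, and 0.23 for Mbd3, a core subunit gene.

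**Figure D4:**
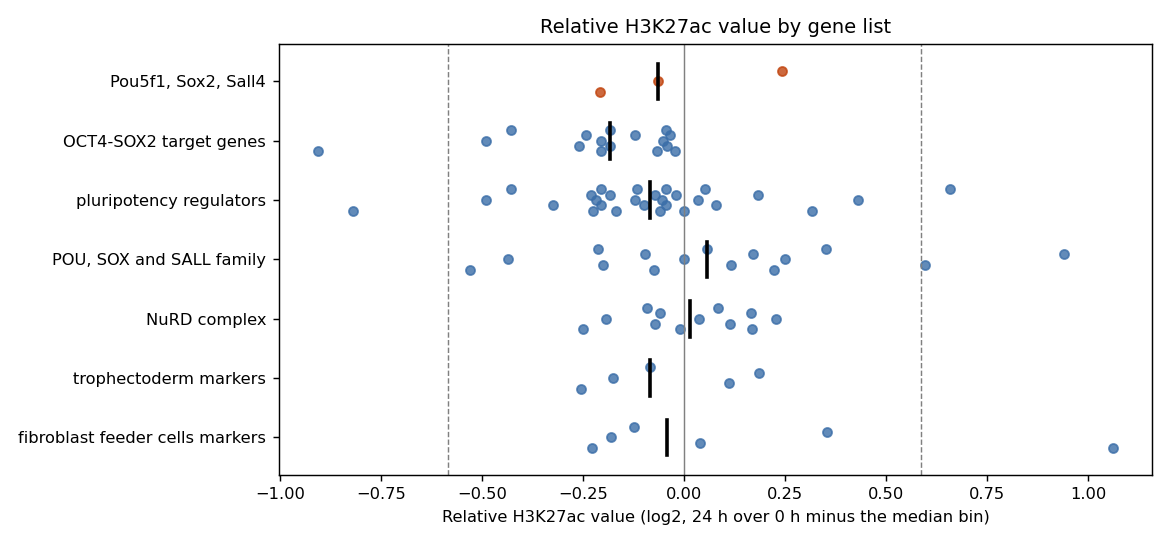
Relative H3K27ac value (log2) of each gene with a value, by list, with Pou5f1, Sox2 and Sall4 in the top row. Points are genes, black bars list medians, and dashed lines 1.5-fold in each direction. The OCT4-SOX2 target genes all lie below 0 with a median of -0.18, and NuRD genes lie within -0.25 and 0.23.

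Markers of the labelled and of other cell types were looked up in the same way. Of all genes, 55% had a valued bin at 24 h and 56.7% at 0 h. All 10 pluripotent cell genes, the 3 among them, had a valued bin at both times, and 9 of the 10 had a relative value below 0, where 46.7% of all genes did. Those besides the 3 are all in the OCT4-SOX2 target or pluripotency regulator lists too, so this count repeats genes counted above. It too was not set against genes of a like H3K27ac level. Of 9 trophectoderm genes 6 had a valued bin at 24 h and 5 at 0 h. Cdx2, Eomes and Elf5 had none at either time and Krt18 had 5.38 at 24 h only, while Tfap2c had 6.42 at 24 h and 7.49 at 0 h, Gata3 5.47 at 24 h and 8.31 at 0 h, and Tead4 5.26 at 24 h and 7.33 at 0 h in their highest bins. Krt8 had 5.38 among 2 valued bins at 24 h and 3.09 in 1 at 0 h, and Hand1 3.98 at 24 h and 4.01 at 0 h. The 1 Krt8 bin valued at both times had a relative value of -0.18, so 5.38 came from a bin unvalued at 0 h. Krt8 and Krt18, which lie close together, held this same value of 5.38 at 24 h. Of 12 fibroblast genes, a check on the feeder cells, 6 had a valued bin at 24 h and 6 at 0 h. Col1a2, Thy1, Acta2, Postn, Twist1 and Prrx1 had none, while Loxl1 had 10.7 at 24 h and 12.1 at 0 h and Fn1 6.12 at 24 h and 9.53 at 0 h. Col3a1 had 6.71 at 24 h and 6.15 at 0 h. Lower values were found at Col1a1, 2.59 at 24 h and 3.35 at 0 h, and S100a4, 2.95 at 24 h and 4.04 at 0 h. Vim, an intermediate filament gene that many cells use, stood at 1.06, with 5.31 at 24 h and 2.98 at 0 h. A part of feeder cells or of differentiating cells in the values of the 3 genes was not tested.

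Each gene was also set beside all others over 5 measures: the highest value at 24 h and at 0 h, the relative value, the number of KLF4 peaks and the length of iPSC H3K27ac. The measure of likeness was the mean absolute difference in percentile over 11243 genes. Nearest to Sox2 were Bcap31, at 0.804 percentile points, Pkd2 at 1.92 and Mcf2 at 2.45. Nearest to Pou5f1 were LOC115489489 at 1.67, Usp4 at 2.03 and Ccdc84 at 2.03. Nearest to Sall4 were Top3b at 2.05, Mbtps2 at 2.09 and Dmd at 2.31. Sox2 had 11.6 at 24 h and 14.2 at 0 h with 1 KLF4 peak, and Bcap31, which encodes a protein of the endoplasmic reticulum, had 12.0 at 24 h and 14.3 at 0 h, also with 1 peak.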

How the data were processed

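Mouse ESCs and iPSCs were profiled by ChIP-seq, and the authors deposited 4 lists. Build mm10 and the tools MACS2, bedtools, SAMtools and Bowtie2 are named, per the submitters' processing notes, with no versions or roles. The combination of replicates and the scaling of values are not given in the sources used here. Each list was assigned to its group by its deposited name. Column 10 of each deposited ESC list was read as an H3K27ac signal per 10 kb bin, with the smallest storable number taken as no value. Column 4, a whole-number score deposited by the authors, was read as links. Marks in columns 5 to 9 were described for column 6. The iPSC lists hold peak positions alone. Neighbouring bins often share 1 value and are not independent.

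Gene spans came from RefSeq GRCm38.p6 in a table without strand, so Sall4 is described by its low and high ends, and promoters from a RefSeq table that gives strand. A locus took every bin or peak that overlapped it by 1 bp or more. Log2 ratios of the value at 24 h to that at 0 h were averaged over bins valued at both times, minus the median of all such bins. As a group has 1 list, no test was made and 1.5-fold served as the threshold, beside the share of all genes or bins past it. Shares of links have exact (Clopper-Pearson) binomial 95% intervals for counting error. The intervals treat every counted end as independent, so they are too narrow where a link has both ends in the same locus. Python 3.11.15, pandas 2.3.3, scipy 1.17.1 and matplotlib 3.10.9 were used.

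The genes and lists were chosen with earlier results of these data known. Named were the loci, genes that share their bins, up to 4 members per list with the lowest or highest relative values, and the 3 most alike genes each. Klf2, Klf4 and the marker genes beyond this rule were named after their values were seen. Certain members are not reported here. Alternatives changed flanks, distance, centring, measure, fold, peak width, overlap and merging.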

Additional observations from a re-analysis of the deposited data

Results flagged for a closer look

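One column that the comparisons did not use stood out at these loci. Column 6 of the ESC lists, whose meaning the lists do not give, marked 9 of the 26 bins listed at 0 h, or 34.6%, where it marked 467 of all 49460 listed bins, or 0.944%. The marked bins were 1 of 4 at Pou5f1, the one with the start of the gene, 2 of 4 at Sox2, both with the high value over the gene, 2 of 5 at Sall4 and 4 of 13 in the Sox2 distal region. In that region both control region bins and the bins from 34730001 and 34740001 were marked. Over the whole series 96.6% of marked bins had a value at 0 h, and their median value was 6.87 at 24 h and 8.68 at 0 h. What the mark stands for was not tested.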

How the results depend on the processing

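Relative values kept their direction under every alternative run at Pou5f1 (-0.44 to -0.06), Sox2 (-0.29 to -0.05) and Sall4 (0.01 to 0.48). The Sox2 distal region did not: it was -0.15 from the highest values, -0.11 without centring and -0.02 without its highest bin. The share of links at 24 h stayed between 44.7% and 46.5% at Pou5f1, 37.1% and 42.4% at Sox2, 52.8% and 53.6% at Sall4 and 43.5% and 45.2% in the distal region. Of 112 values recomputed under other settings 26 moved beyond their tolerance: the SD over all genes or distal regions for a relative value, the binomial interval for a share, and 1.5 times for a count. The 3 added after seeing the data (the whole Sox2 stretch, and Sall4 and the distal region without their highest bins) stayed within it. No paired analysis was possible because each group has 1 deposited list, and no replicate could be left out.

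With 0 kb flanks KLF4 peaks numbered 0 at Pou5f1, 0 at Sox2 and 0 at Sall4, H3K27ac peaks 5, 1 and 2 in that order, and valued Sall4 bins at 0 h 3. With 25 kb flanks there were 5 valued Pou5f1 bins at 24 h and 5 at 0 h, and 8 H3K27ac peaks at Sox2 and 8 at Sall4. Of peaks at least as wide as the median, KLF4 had 2 at Pou5f1, 0 at Sox2, 1 at Sall4 and 1 in the distal region, and H3K27ac 6 at Pou5f1 and 15 in the distal region. Merging peaks 1 kb or less apart left 5 H3K27ac peaks at Pou5f1, 1 at Sox2, 2 at Sall4 and 9 in the distal region. A distal region up to 100 kb held 5 KLF4 and 16 H3K27ac peaks. At the lower of the fold thresholds tried 2 distal bins passed, and 2 Sall4 bins at 0 h were above the median value. The peak counts follow from a smaller or larger window or from fewer peaks by construction. Without replicates or depth, whether any difference between 24 h and 0 h exceeds the spread between cultures is unknown.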
